A study of Rattus norvegicus with 6 samples.

Results

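Long noncoding RNAs printed on a rat expression array under identifiers that begin with MRAK were examined in infarcted and sham-operated hearts. They account for 3588 of the 24684 noncontrol probes of the array. Each MRAK name has 1 probe, printed as 3 spots, so no name could be checked against a further probe of the same transcript. The hearts came from male Wistar rats. In the border_zone group, 3 rats had the left anterior descending coronary artery tied off, and 6 h later the rim of the infarct was located by a double stain (TTC and EB) and taken. In the sham group, 3 rats were operated on without ligation, and the tissue is labelled as control zone at 6 h. Total RNA of each rat was hybridised to 1 single-colour Cy3 array. The border-zone arrays are M17, M24 and M25, and the sham arrays are C4, C5 and C6. The labels do not say which piece of heart the sham tissue was, and no rat gave tissue to both groups.

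Long noncoding RNAs are transcripts that do not encode a protein. Some act in the nucleus, on chromatin or on splicing, and others bind proteins or small RNAs in the cytoplasm. As a class they tend to be less abundant and more restricted to certain tissues than messenger RNAs. The border zone is the strip of stressed but partly living muscle next to the infarct. It is known for early inflammatory signalling and the arrival of leukocytes. The letters AK followed by digits have the form of accessions of full-length mouse cDNAs, but the files do not state that link and it was not used. A function, sequence, position or neighbouring gene of each MRAK transcript was not used here, so every probe is given by its identifier alone.

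Sham C5 and C6 stood apart from C4 and from the border zone. Of the listed markers of central nervous tissue, C5 and C6 both detected 7 of 12 measured neuronal genes, 6 of 6 astrocyte genes and 6 of 7 oligodendrocyte genes (well above background, as defined below). Each of these detected genes was higher on C5 and on C6 than on every other array, and their median excess over C4 was 3.29, 3.69 and 2.58 log2 units, with undetected C4 levels raised to the dimmest detected signal of that array. No array detected another 3 neuronal genes. The list means of the 3 types, undetected genes included, ran from -2.76 to -0.22 on C5 and C6 and from -6.46 to -3.85 on the other arrays. The 3 neuronal genes that no array detected also read higher on C5 and C6, so undetected signal adds to this gap. Cardiomyocyte markers, which check the labelled tissue, were well above background for all 10 genes on all 6 arrays, with list means of 5.50 to 5.84. C4 shared scan 1 with the border-zone arrays, C5 was scan 2 and C6 was scan 3, so C4 is shown apart below. M25 was unusual in another way. Of the 57 tested MRAK probes that differed more than 2-fold between M17 and M24, M25 lay between them in 57, against 558 of 572 such probes over the whole array. Whether M25 is RNA of a separate animal was not tested, and results are given with and without it.

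Fewer MRAK transcripts were detected on C5 and C6 than on the other arrays. Levels are log2 processed signals minus each array's own 75th percentile, and a probe counts as detected on an array when the scanner software marked most of its usable spots as well above background. Of the 3570 MRAK probes with usable values on every array, 2238 were detected on M17, 2370 on M24, 2421 on M25 and 2182 on C4. Only 1139 were detected on C5 and 1232 on C6. In percent of MRAK probes, detection ran from 61.1% to 67.8% on the first 4 arrays and was 31.9% and 34.5% on C5 and C6. Over all probes the same arrays gave 73.7% to 78.3%, and 51.0% and 52.4%. The dimmest signal still marked as detected was -7.41 to -6.98 on the first 4 arrays, but -4.49 on C5 and -3.98 on C6. A dim transcript could therefore be detected on C4 and missed on C5 and C6 at the same level.

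**Figure D1:**
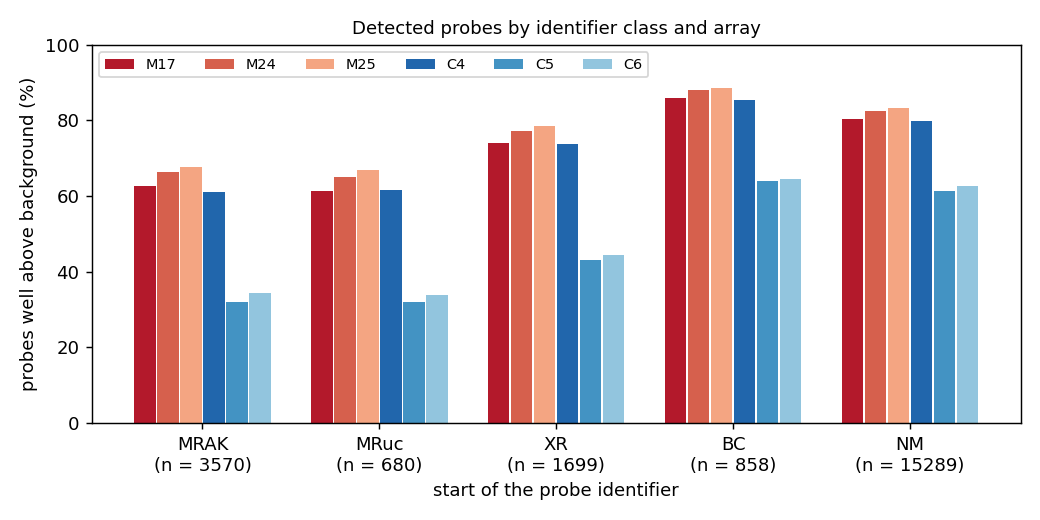
Share of probes detected on each array, by the start of the probe identifier, with the number of probes of each class on the axis. Bars are single arrays and start at 0. MRAK probes reach 61.1% to 67.8% on M17, M24, M25 and C4 but 31.9% and 34.5% on C5 and C6, and every class shown drops on those arrays.

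Most of the MRAK transcripts that seemed to be missing from sham hearts were present on C4, as were most such probes of the whole array. There were 1075 MRAK probes detected on all 6 arrays and 1107 detected on all border-zone arrays but not on all sham arrays. Of those 1107, 854 were detected on C4 and on neither C5 nor C6, and a further 152 on C4 and 1 of the others. Another 98 were on no sham array. Over the whole array the same counts were 4456, 999 and 459 of 5958. In the opposite direction, 5 MRAK probes, of 36 over the whole array, were detected on all sham arrays but not on all border-zone arrays. These were MRAK005319, MRAK034153, MRAK090394, MRAK136514 and MRAK148867. The first, the third and the fourth were on no border-zone array at all. Neither group was complete for the other 1383 MRAK probes, of which 1028 were detected on no array. The test below covers the 2187 probes detected on all 3 arrays of at least 1 group. A probe can enter through the border zone alone because it is brighter there or because C5 and C6 detect less, so counts over these 2187 do not describe all MRAK transcripts.

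MRAK transcripts both rose and fell in the border zone, at shares below those of the whole array, a gap that was not tested. At an adjusted p below 0.05 (limma, Benjamini-Hochberg over 17930 tested probes of every class), 301 of 2187 MRAK probes were called, or 13.8%, against 19.3% of all tested probes. Of these, 129 were higher in the border zone (5.9% of MRAK probes, background 9.01%) and 172 were lower (7.86%, background 10.3%). Among the probes detected on all 6 arrays, 227 were called (21.1%, background 24.9%), 79 of them higher (7.35%, background 10.6%) and 148 lower (13.8%, background 14.2%). Among the 1107 detected on all border-zone but not all sham arrays, 50 were higher (4.52%, background 5.79%) and 22 lower (1.99%, background 2.28%). The median change of a called MRAK probe was 0.86 log2 units for rises and -0.87 for falls, against 0.98 and -0.88 over the array. Among called probes detected on all 6 arrays the medians were 0.79 and -0.87, against 0.90 and -0.86 over the array. Changes of at least 2-fold were called for 54 rises (2.47%, background 4.39%) and 73 falls (3.34%, background 4.13%). The 3 border-zone arrays and the 3 sham arrays did not overlap for 769 MRAK probes (35.2%, background 43.7%).

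The number of called probes depended on single arrays. Without M25 the calls dropped to 10 higher (0.457%, background 1.6%) and 18 lower (0.823%, background 1.24%). Without C4, 759 MRAK probes were called (34.7%, background 40.8%). In that fit, group cannot be told apart from scan or from the central nervous markers of C5 and C6. Leaving out M17 left 104 calls (4.76%, background 8.03%), and leaving out M24 left 75 (3.43%, background 6.51%). Without C5 there were 95 (4.34%, background 7.84%) and without C6 there were 201 (9.19%, background 13.2%). The whole array moved in the same way each time. The balance of rises and falls depended on the scaling. Rises made up 42.9% of called MRAK probes with the 75th percentile, 50.9% with quantile scaling, 69.1% with median scaling and 55.2% in the deposited value table. They made up 30.2% after normexp background correction. Over all called probes the shares were 46.7%, 47.6%, 67.6%, 49.2% and 43.8% in the same order of versions. The median change of all tested probes was -0.03, 0.09, 0.16, 0.09 and -0.35 log2 units in those 5 versions, so small changes near that size have no settled direction. When scan was added as a block, which sets the border zone against C4 alone, 144 MRAK probes were higher (6.58%, background 8.43%) and 129 lower (5.9%, background 7.5%). Of the pooled calls, 61 rises (2.79%, background 5.47%) and 93 falls (4.25%, background 5.42%) were also called with the block. No called MRAK probe had the opposite sign against C4. These fits share arrays and are not separate evidence. With the block, C5 and C6 are fitted exactly and C4 has no replicate. Every p-value given with the block or against C4 alone therefore measures only the spread between border-zone arrays, with no sham spread.

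**Figure D2:**
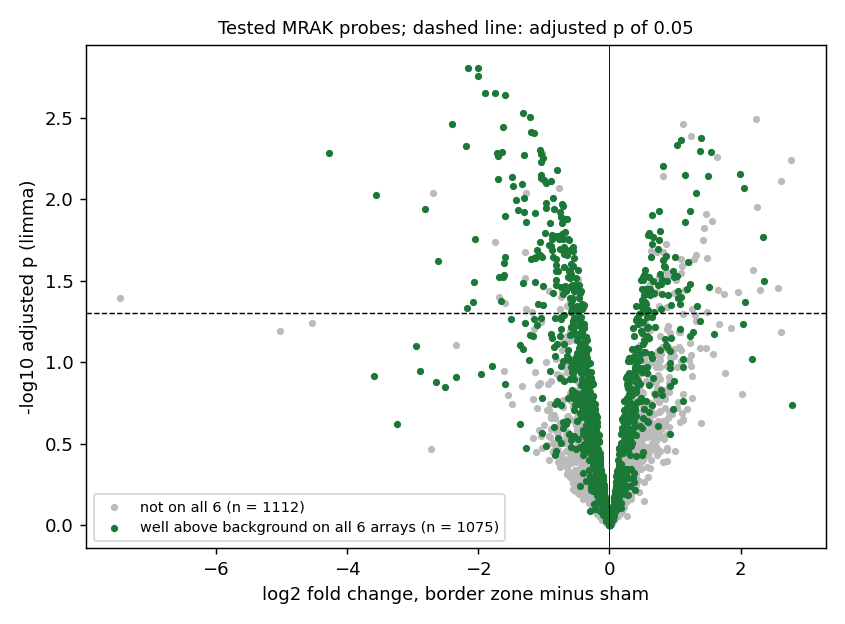
Change of each tested MRAK probe (horizontal axis, log2 fold change, border zone minus sham) against minus log10 of its limma adjusted p, with the 1075 probes detected on all 6 arrays in green and the others in grey. In this pooled difference falls reach further than rises, to -7.46 for MRAK090394, which is grey and was on no border-zone array. The largest called rise is 2.76 for MRAK014000. Against C4 alone the order is the other way, and differences of tested MRAK probes run from -3.15 to 5.82.

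The 8 largest called rises were of 2.23 to 2.76 log2 units, and 6 of them were not detected on all sham arrays. Those 6 entered the test through the border zone alone, where they are high, and their SE and p-values include undetected sham signal. Neutrophil markers differed between the groups as well. The 4 of 6 listed genes that were measured had a list mean of -1.58 to -1.54 in the border zone and of -5.15 to -4.61 in sham. C4 detected all 4 of them, and C5 and C6 both detected 1. Their part in the MRAK rises was not tested, and in tissue RNA more cells of a type cannot be told apart from more RNA per cell. MRAK145478 had levels of -2.57, -2.26 and -2.42 on M17, M24 and M25, and of -4.30, -4.60 and -5.04 on C4, C5 and C6, where only C4 detected it. The border-zone arrays were close together and all above sham. The difference was 2.23 ± 0.21 (SE) log2 units, at least 3.59-fold, with a limma adjusted p of 0.0032, and 0.0319 without M25 on the same other arrays. Against C4 alone it was 1.89, and normexp correction left 0.57 (limma adjusted p 0.123). Here and below, "at least" sets the brighter group against the dimmer group's own level or the dimmest detected signal of each array, whichever is higher.

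MRAK014000 had levels of -2.50, -3.72 and -2.92 in the border zone (M17, M24 and M25, in that order from here on). In sham it had -5.52, -5.97 and -5.94 (C4, C5 and C6), with detection on C4 only. Every border-zone array was above every sham array, but M17 and M24 were more than 2-fold apart. The rise was 2.76 ± 0.33 log2 units, at least 3.06-fold (limma adjusted p 0.00578), and against C4 alone it was 2.47 with an adjusted p of 0.054. MRAK054064 read -3.01, -1.84 and -2.28 in the border zone against -4.62, -4.94 and -5.39 in sham, again detected on C4 but not on C5 or C6. The groups did not overlap. It rose by 2.61 ± 0.35, at least 3.98-fold (limma adjusted p 0.00774), a call that ended with the block (0.0581) and without M25 (0.0523).

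MRAK041476 read -2.44, -1.94 and -2.21 in the border zone and -4.62, -4.99 and -3.74 in sham, where C5 did not detect it. Its border-zone arrays were all above its sham arrays. The rise was 2.25 ± 0.34, at least 4.24-fold (limma adjusted p 0.0111), with adjusted p of 0.0515 without M24 and 0.0647 without M25. MRAK078313 had tightly grouped border-zone levels of -2.53, -2.31 and -2.42 and spread sham levels of -3.79, -5.95 and -4.40. Only C4, the highest sham array, detected it, and the groups did not overlap. Its rise was 2.29 ± 0.54, at least 3.18-fold (limma adjusted p 0.0362), and 1.37 against C4 alone. It was not called without M17, M24, M25 or C6, with adjusted p of 0.102, 0.12, 0.132 and 0.0677.

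MRAK077969 was on no sham array. It had -3.39, -4.91 and -4.01 in the border zone and -7.80, -6.18 and -6.05 in sham, and C4 was the lowest array. The rise of 2.57 ± 0.59, at least 2.07-fold, had a limma adjusted p of 0.0348. It was not called without M17 (0.105), M24 (0.0601), M25 (0.132), C5 (0.0745) or C6 (0.0506). For the rises named so far, normexp correction on the raw signals left differences of only 0.03 to 0.75 log2 units, none of them called.

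Only MRAK159688 and MRAK082557 among the 8 were detected on all 6 arrays. MRAK159688 had 1.65, 2.69 and 2.21 in the border zone and 0.68, 0.01 and -1.21 in sham. All border-zone arrays were above all sham arrays, though sham spanned nearly 2 log2 units. It rose 5.12-fold (2.36 ± 0.53, limma adjusted p 0.0316). Against C4 alone the difference was 1.51 (adjusted p 0.0948), and the call also ended without M17 (0.0659), M24 (0.11), M25 (0.123) or C5 (0.0846). MRAK082557 had -1.52, -0.52 and -0.95 in the border zone and -4.09, -3.13 and -2.78 in sham. C4 was its lowest array and the groups were well separated. It rose 5.04-fold (2.33 ± 0.41, limma adjusted p 0.0172), by 3.09 against C4 alone (adjusted p 0.0279). Without M24, M25 or C5 its adjusted p was 0.065, 0.0859 and 0.0526. With normexp correction it rose by 1.34 and was not called (limma adjusted p 0.0615), while MRAK159688 rose by 2.26 (0.0248).

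**Figure D3:**
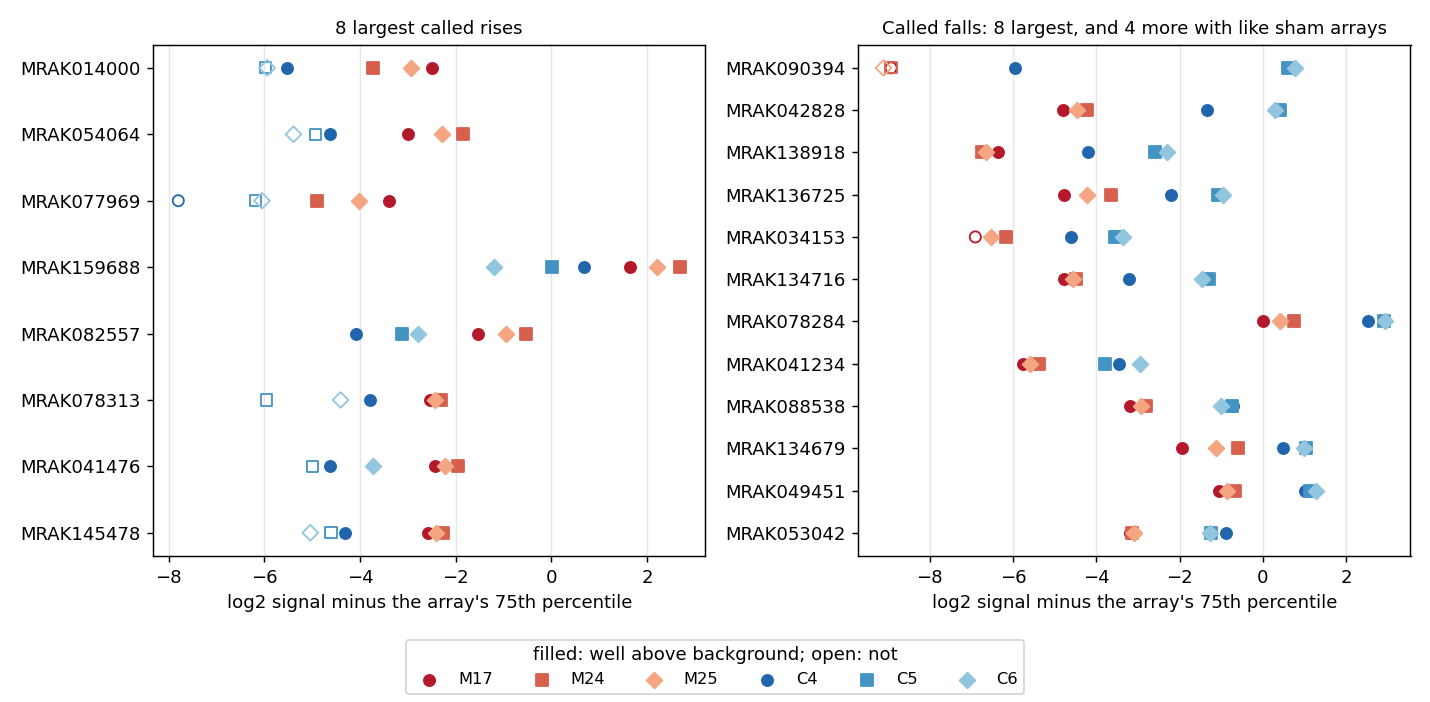
Levels of named MRAK probes on each array (log2 signal minus the array's 75th percentile), with border-zone arrays in red and sham arrays in blue. Filled points were well above background and open points were not. The left panel holds the 8 largest called rises, for most of which at least 1 sham point is open. The right panel holds 12 called falls, in several of which C5 and C6 lie far to the right of C4.

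The largest falls divided into probes with an uneven sham group and probes whose 3 sham arrays were alike. Of the 15 called falls of at least 4-fold, 9 had both C5 and C6 at least 2-fold above C4 (60%, against 44.4% of such falls over the array). Of all 172 called falls, 12 did (6.98%, against 5.37%). The central nervous markers that C5 and C6 detected differed in the same way, by medians of 2.58 to 3.69 log2 units over C4, and their part in these falls was not tested. The border zone against C4 alone is therefore given for each.

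MRAK090394 showed the most uneven sham group among the called falls. Its levels were -8.92, -8.93 and -9.10 in the border zone, where no array detected it, and -5.96, 0.61 and 0.77 in sham. C5 and C6 were over 6 log2 units above C4, and C4 was in turn above every border-zone array. It was at least 55.2-fold lower (log2 fold change -7.46 ± 1.82, limma adjusted p 0.0402). Against C4 alone the measured difference of -3.03 includes undetected signal, and with the border zone at its dimmest detected signals it was -1.35. Leaving out M17, M24, M25, C5 or C6 ended the pooled call, with adjusted p of 0.114, 0.123, 0.139, 0.112 and 0.0922. So did quantile scaling (limma adjusted p 0.0643), the deposited values (0.0881), normexp correction (0.0923) and no filter (0.076).

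MRAK042828 was detected on every array. It had -4.79, -4.23 and -4.46 in the border zone and -1.34, 0.42 and 0.28 in sham. C4 was lower than C5 and C6 by 1.69 on average, yet nearly 3 log2 units above the highest border-zone array. It was 19.4-fold lower in the border zone (-4.28 ± 0.49, limma adjusted p 0.00521), and -3.15 against C4 alone (adjusted p 0.0136). The call held without M25 (0.0408). MRAK138918 behaved alike, with -6.36, -6.75 and -6.64 against -4.20, -2.59 and -2.30. C4 lay between the border zone and the other sham arrays. It was 11.7-fold lower (-3.55 ± 0.50, limma adjusted p 0.00935), and -2.39 against C4 alone (0.0136), but was not called without M25 (0.0568).

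MRAK136725 had -4.78, -3.65 and -4.21 in the border zone and -2.19, -1.09 and -0.95 in sham. The groups did not overlap and C4 was the lowest sham array. It was 7.0-fold lower (-2.81 ± 0.43, limma adjusted p 0.0115), with adjusted p of 0.065 against C4 alone and 0.0653 without M25. MRAK034153 had -6.90, -6.16 and -6.53 in the border zone, where M17 did not detect it, and -4.61, -3.55 and -3.36 in sham. Again C4 was the sham array nearest to the border zone. It was at least 6.45-fold lower (-2.69 ± 0.38, limma adjusted p 0.00914), and -1.92 against C4 alone (0.0365), but not called without M25 (0.0563). MRAK134716 had -4.78, -4.47 and -4.56 against -3.22, -1.29 and -1.45. It was 6.13-fold lower (-2.62 ± 0.52, limma adjusted p 0.0238), and only -1.38 against C4 alone (0.0209). Leaving out M17, M24, M25, C5 or C6 ended that call, with adjusted p of 0.0826, 0.0809, 0.102, 0.0706 and 0.0606.

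In 6 large falls the sham arrays were within 2-fold of each other, comparing C4 with the mean of C5 and C6, so the fall had a like size against either. MRAK078284 had -0.01, 0.76 and 0.42 in the border zone and 2.53, 2.92 and 2.94 in sham. All sham arrays lay well above all border-zone arrays. It was 5.3-fold lower (-2.41 ± 0.23, limma adjusted p 0.00347), and -2.14 against C4 alone. MRAK041234 had -5.76, -5.38 and -5.58 against -3.45, -3.79 and -2.94, with C4 between C5 and C6. It was 4.54-fold lower (-2.18 ± 0.24, limma adjusted p 0.0047), and -2.13 against C4 alone. MRAK088538 had -3.19, -2.81 and -2.94 against -0.72, -0.74 and -0.996, and the sham arrays nearly coincided. It was 4.48-fold lower (-2.16 ± 0.15, limma adjusted p 0.00156), and -2.26 against C4 alone.

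MRAK049451 had -1.06, -0.68 and -0.86 in the border zone and 1.01, 1.12 and 1.29 in sham. It was 4.02-fold lower (-2.01 ± 0.15, limma adjusted p 0.00174), and -1.88 against C4 alone. MRAK053042 had almost the same level on all 3 border-zone arrays, -3.18, -3.15 and -3.10, against -0.89, -1.25 and -1.28 in sham. The difference was -2.001 ± 0.14 (limma adjusted p 0.00157), and -2.25 against C4 alone. These last falls had spreads within each group far smaller than the gap between the groups. MRAK134679 varied more, with -1.93, -0.59 and -1.13 against 0.47, 1.04 and 0.99. It was 4.14-fold lower (-2.05 ± 0.37, limma adjusted p 0.0176), and that call ended with the scan block (0.12), without M25 (0.0834) and without C5 (0.0636).

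A smaller set of MRAK probes was called in the pooled fit, with the scan block and without M25. There were 27 of them, 1.24% of tested MRAK probes against 2.82% of all tested probes, and 18 were lower and 9 higher in the border zone. The set was nearly the list of the fit without M25, which called 10 MRAK probes higher and 18 lower. Over the whole array that fit called 286 higher and 223 lower, and the difference in balance was not tested. Of the 27, 23 were detected on all 6 arrays and 26 had C4 within 2-fold of the mean of C5 and C6. Like sham arrays are largely what a call both pooled and against C4 selects, so the 26 are no separate result. Besides MRAK042828, MRAK078284, MRAK041234, MRAK088538, MRAK049451, MRAK053042 and MRAK145478, the members were picked after their values were seen. Their further falls ran from -1.89 for MRAK160944 to -1.15 for MRAK165779. MRAK160944 had -3.76, -3.64 and -3.71 in the border zone and -2.07, -1.78 and -1.58 in sham. MRAK165779 had 2.71, 2.57 and 2.62 against 3.66, 3.90 and 3.80. Neither pair of groups overlapped, and within each group the arrays lay within 0.5 log2 units.

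The rises of that set were mostly of smaller size, on probes of which several were detected on all arrays. MRAK020957 had 2.45, 2.62 and 2.52 in the border zone and 0.92, 1.12 and 1.35 in sham, a 2.64-fold rise (1.40 ± 0.15, limma adjusted p 0.0042). MRAK081365 had 1.12, 0.89 and 0.92 against -0.41, -0.89 and -0.39, a 2.91-fold rise (1.54 ± 0.18, limma adjusted p 0.00512). MRAK020121 had 1.42, 1.18 and 1.26 against 0.25, 0.25 and 0.27, a 2.04-fold rise (1.03 ± 0.11, limma adjusted p 0.00467). For all 3 probes the border-zone arrays stood clear of all sham arrays, and C4 was no different from the others by more than 0.5 log2 units. MRAK139263 rose by 1.09 and MRAK047554 by 1.38. MRAK031875, MRAK041559 and MRAK078452 passed through the border zone, and neither C5 nor C6 detected them. Their measured differences of 1.12, 1.24 and 1.64 were called, but with undetected sham arrays at their dimmest detected signals only MRAK078452 kept a rise, of at least 1.36-fold. For MRAK041559 the bound was 1.01-fold, and for MRAK031875 this bound supported no rise. Against C4 alone, a single sham array that detected all 3, MRAK031875, MRAK041559 and MRAK078452 were higher by 1.24, 1.21 and 1.72 log2 units. All 3 changed sign with normexp correction, to -0.39, -0.33 and -0.23. With M25 left out and C4 as the only sham array, none of the 27 was called, and 6 MRAK probes were in all (0.274%, background 0.424%).

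**Figure D4:**
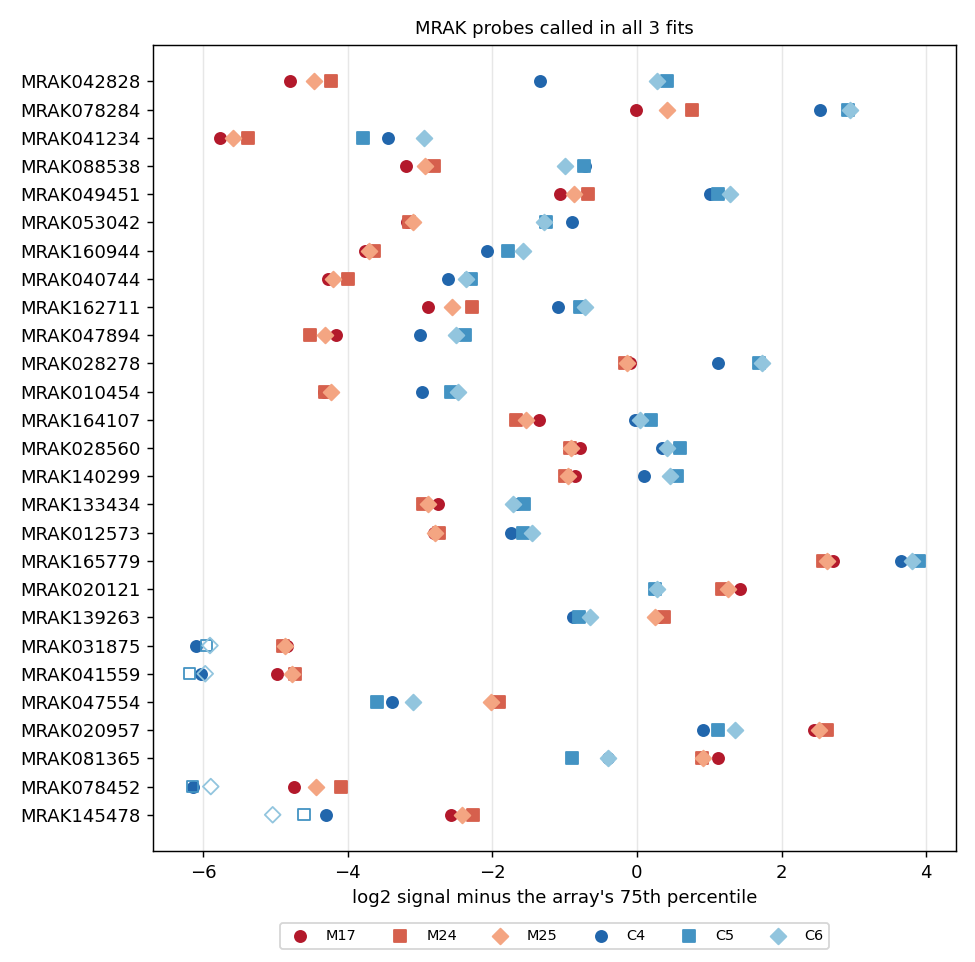
Levels on each array (log2 signal minus the array's 75th percentile) of the 27 MRAK probes called in the pooled fit, with scan as a block and without M25. Border-zone arrays are red and sham arrays blue, and open points were not well above background. The upper 18 probes are lower in the border zone and the lower 9 are higher, and apart from MRAK042828 the sham arrays of each probe lie within 1 log2 unit of each other.

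Some MRAK probes separated C5 and C6 from C4 rather than infarct from sham. Both arrays were at least 2-fold above C4 for 85 of the 2187 tested MRAK probes (3.89%, background 4.09%). Of the 1081 tested MRAK probes that both arrays detected, 53 differed in this way (4.9%, background 4.33%) and 11 in the opposite way (1.02%, background 2.56%). The median excess of the 53 over C4 was 1.85 log2 units, and 37 of the 53 had a border-zone mean within 2-fold of C4. In the pooled test 11 of the 53 were called lower (20.8%, against 18.5% of the 519 such probes over the array) and 1, MRAK142743, was called higher (1.89%, against 0.771%). The 5 with the largest excess were MRAK009873, MRAK090394, MRAK013810, MRAK005319 and MRAK083095.

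MRAK009873 had -0.44 and -0.06 on C5 and C6, but -7.07 on C4, where it was not detected, and -5.75, -4.77 and -5.19 in the border zone. The border zone thus lay below C5 and C6 and above C4. MRAK013810 had 0.83 and 1.20 on C5 and C6, -5.19 on C4 and -3.38, -5.34 and -4.17 in the border zone, where C4 fell among the border-zone arrays. MRAK083095 had 0.29 and 0.63 on C5 and C6, -4.55 on C4 and -4.91, -4.76 and -4.72 in the border zone, so that 4 arrays were alike and 2 far above. MRAK005319 had -1.27 and -1.04 on C5 and C6, -6.44 on C4 and -7.85, -7.50 and -8.46 in the border zone, where it was not detected. None of these 4 was called in the pooled fit (limma adjusted p 0.341, 0.24, 0.121 and 0.0639 in the order given). Without C4 each was called lower, with log2 fold changes of -4.99, -5.31, -5.26 and -6.78 and adjusted p of 0.000952, 0.00354, 0.000318 and 0.000517. For MRAK005319, whose border-zone signal was undetected, the difference without C4 was -6.15 with that signal at the dimmest detected level. Against C4 alone none was called (0.0613, 0.475, 0.236 and 0.084). There MRAK009873 was higher by at least 1.74, MRAK013810 differed by 0.90 and MRAK083095 by -0.24, and for MRAK005319 the bound was -0.87. The call on these probes thus rested on which sham arrays were used. Without C4, a difference of group cannot be told apart from 1 of scan or of central nervous content.

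**Figure D5:**
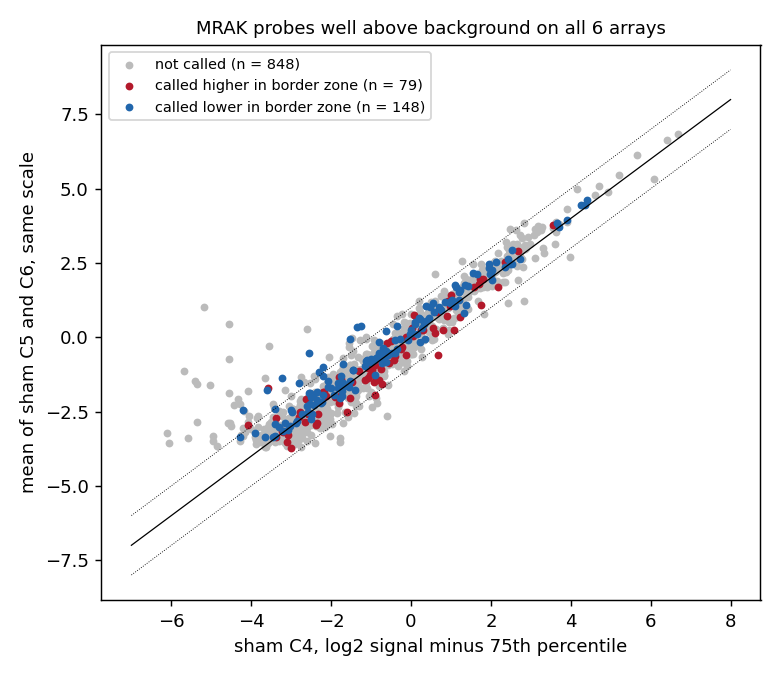
Level of the 1075 MRAK probes detected on all 6 arrays on sham C4 (horizontal axis) against the mean of sham C5 and C6 (vertical axis), both as log2 signal minus the array's 75th percentile, with equality as a solid line and 2-fold differences dotted. Red points were called higher in the border zone (79), blue points lower (148) and grey points were not called. Most points lie within the dotted lines, and a group of probes that are dim on C4 lies far above them.

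Over all 1075 probes on all 6 arrays, C4 was no closer to the other sham arrays than to the border zone. Pearson's r across probes was 0.951 and 0.942 between C4 and C5 or C6, and 0.957, 0.954 and 0.959 between C4 and M17, M24 or M25. It was 0.991 between C5 and C6, and 0.917 to 0.924 between those arrays and the border zone. Over all 11936 probes detected on all 6 arrays, r was 0.963 and 0.953 between C4 and C5 or C6. Between C4 and M17, M24 or M25 it was 0.964, 0.958 and 0.964. C4 shared scan 1 with the border zone, so likeness of tissue and of scan cannot be told apart. The high probes of C5 and C6 are included in these values. The median excess of C5 and C6 over C4 was 0.13 log2 units for the MRAK probes, against 0.05 over all probes. The median SD within a group was 0.22 log2 units in sham and 0.11 in the border zone.

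In 3 further probes, picked after their values were seen, it was C4 that stood below the rest, and the border zone differed most from C4. MRAK080917 had 0.57, -0.31 and 0.15 in the border zone and -5.68, -1.72 and -0.53 in sham, and all arrays detected it. The sham arrays spread over 5 log2 units, with C6 within 0.3 of the lowest border-zone array. The pooled difference of 2.78 ± 1.30 was not called (limma adjusted p 0.182). Against C4 alone, a single sham array, it was 5.82, and 5.81 without M25. MRAK078853 had -1.40, -1.65 and -1.49 against -5.35, -3.42 and -2.26. It differed by 2.17 ± 0.75 in the pooled fit (limma adjusted p 0.0958) and by 3.84 against C4 alone (0.00546). MRAK142743 had -0.34, -0.22 and -0.28 against -3.57, -1.79 and -1.65. It rose by 2.06 ± 0.52 (limma adjusted p 0.0429), and by 3.29 against C4 alone (0.00455), and was not called in the pooled fit without M17 (0.116), M24 (0.131), M25 (0.146) or C5 (0.0753).

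The MRAK probes with the highest signals were not called. MRAK149123 had 6.61, 6.43 and 6.44 in the border zone and 6.67, 6.62 and 7.06 in sham, a difference of -0.29 ± 0.16 (limma adjusted p 0.233). MRAK148606 had 6.40, 6.27 and 6.28 against 6.41, 6.42 and 6.86 (difference -0.24, adjusted p 0.317). In both, C6 was the highest array and C4 lay within 0.3 log2 units of the border zone. MRAK050904, with 5.82, 5.85 and 5.78 against 5.65, 5.98 and 6.29, differed by -0.15 (adjusted p 0.566), and its groups overlapped. MRAK079934, with 5.22, 5.12 and 5.13 against 5.22, 5.42 and 5.50, differed by -0.23 ± 0.12 (adjusted p 0.237). MRAK154943 had 6.10, 5.92 and 5.94 in the border zone and 6.09, 5.21 and 5.46 in sham. C4 lay within the border-zone range there, and the difference was 0.40 ± 0.24 in the pooled fit (limma adjusted p 0.279) and 0.65 without C4 (0.0152). In the latter fit, group and scan cannot be told apart.

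The probes with the smallest differences showed how wide a range a mean difference near 0 can cover. MRAK041902 had -1.07, -1.21 and -1.15 in the border zone and -0.87, -1.20 and -1.37 in sham (SE of the difference 0.16). MRAK014507 had 0.60, 0.33 and 0.44 against 0.15, 0.53 and 0.69 (SE 0.18). MRAK013529 had -4.00, -2.17 and -2.75 against -2.93, -3.06 and -2.93 (SE 0.46), so its border-zone arrays spread on both sides of 3 like sham arrays.

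In shares of called probes, MRAK probes were near MRuc probes, a further class of noncoding identifiers: 5.9% of MRAK probes rose and 7.86% fell, against 5.15% and 7.84% of 408 tested MRuc probes. XR probes, which carry RefSeq accessions of predicted noncoding RNAs, had 13.6% rises and 3.01% falls among 1231. BC probes, with cDNA accessions, had 6.02% rises and 14.2% falls among 731, and NM probes, RefSeq messenger RNAs, 9.77% and 12% among 12085. Over probes detected on all 6 arrays the called share was 21.1% for MRAK, 21.3% for MRuc, 22.8% for XR, 24.3% for BC and 25.9% for NM. The smaller MRBC and MRNR classes, with 38 and 30 tested probes, had 0 and 2 rises, and 2 and 4 falls, and the 328 uc probes had 13 rises and 6 falls. The median log2 fold change gave another order, at -0.05 for MRAK, -0.11 for MRuc, 0.35 for XR, -0.14 for BC and -0.05 for NM. The differences between classes were not tested, since probes of 1 array are not replicates.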

How the data were processed

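Members and lists were chosen with earlier results of these data known. The 6 scanner text files hold spot intensity and flags, and per the file headers and the submitters' processing notes they were extracted with Agilent Feature Extraction 11.0.1.1. The processed signal is a background-subtracted intensity, per the file headers. The authors deposited a table of log2 values too. The steps behind it are not given in the sources used here, but its columns share nearly the same quantiles (medians 5.535 to 5.538), as quantile-normalized values do, with no centring of genes. Over 24415 matched probes it ranked like the scanner values (Spearman 0.997 to 0.999), and it served as an alternative. Here log2 processed signals were averaged over a probe's spots without outlier spots, 70 probes without values on every array were left out (18 of them MRAK), each array's 75th percentile was subtracted, and probes well above background on all arrays of a group were tested with limma 3.58.1 in R 4.3.3 (two-sided, Benjamini-Hochberg over all tested probes, threshold 0.05), after checks on simulated data. Tables and figures used Python 3.11.15. Named probes are the 8 largest rises and 8 largest falls among called probes with groups that do not overlap, the 6 largest falls with like sham arrays, the 5 highest on C5 and C6 against C4, the 5 brightest and the 3 with the smallest change among probes on all 6 arrays; others are said to be picked later. Probe intensities of different transcripts are not compared as abundances. Alternatives were quantile and median scaling, normexp background correction (offset 50, on the median spot signal, because a mean-signal column was not used here), no filter, only probes on all 6 arrays, outlier spots kept, the deposited values, scan as a block, and leaving out arrays. Only 3 arrays a group limit the precision, and p-values measure the spread between samples that the labels give as separate rats. Those with the scan block or against C4 alone hold the spread of border-zone arrays only, because no sham replicate is left.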

Additional observations from a re-analysis of the deposited data

How the results depend on the processing

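The 3 counts were 129 MRAK probes higher, 172 lower, and 85 at least 2-fold higher on C5 and C6 than on C4. Normexp correction gave 49, 113 and 41, and no filter gave 37, 92 and 1149. No filter let in the 1028 MRAK probes that no array detected. The dimmest detected signal was -4.49 on C5 and -3.98 on C6, but -6.98 on C4. The 1149 is therefore not a count of detected differences. Median scaling moved the lower count to 82. Leaving out 1 array in turn gave 10 to 376 higher and 18 to 383 lower, with the lowest counts without M25 and the highest without C4. Leaving out M25 and using C4 alone gave 4 higher and 2 lower. Quantile scaling, kept outlier spots, only probes on all 6 arrays, the deposited values and the scan block kept each count they could give within 1.5 times. Normexp reversed MRAK031875 (-0.39), MRAK041559 (-0.33) and MRAK078452 (-0.23). Of the 20 named called probes, median scaling ended 0 calls, quantile scaling 1, no filter 5, normexp 8, the scan block 5, leaving out M25 12 and leaving out M25 with C4 alone 19. The cause of these shifts was not tested, apart from fewer arrays or more probes tested. Signal over background limits C5 and C6 most. No paired analysis was possible because the groups share no replicate number.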

Other observations

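Another 13 MRAK probes were detected on C5 and C6 and on no other array, of 83 such probes over the whole array, and so were not tested between the groups. MRAK034034 had -1.26 and -0.98 on C5 and C6, and -8.92, -8.33, -8.98 and -8.02 on M17, M24, M25 and C4. MRAK161857 had -0.82 and -1.13 on C5 and C6, and -8.89, -7.30, -7.37 and -8.65 on the same 4 arrays. C5 and C6 were at least 69.1-fold and at least 75.7-fold above the other arrays for these probes, and the smallest such bound among the 13 was 15.6-fold, for MRAK159011. Whatever their detection on C5 and C6, 18 MRAK probes, of 142 over the whole array, were detected on C4 and on no border-zone array. Of these, 3 were on all sham arrays, against 11 over the whole array.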
